A study of Mus musculus with 56 samples.

Results

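The p53 protein, encoded by Trp53, is a transcription factor that DNA damage and other stress make active. It then switches on genes that stop the cell cycle, start cell death, repair DNA or limit p53 itself, and in the mammary gland, as elsewhere, its loss removes a main barrier to tumor growth. The RNA of such target genes was followed here in mouse mammary tumors that lack p53, so every level below is one reached without p53 in the tumor cells, beside whatever the p53-competent stroma of the host added. Trp53 and 9 of its best known targets were listed (Cdkn1a, Mdm2, Ccng1, Bax, Bbc3, Gadd45a, Sesn2, Perp and Zmat3). All probe sets with one of these symbols in the platform annotation were taken, which gave 14 probe sets of 8 genes among 34945 probe sets with 1 symbol (18193 genes). Trp53 and Bax were not analysed here, so the loss of Trp53 could not be checked in these values. One of 3 probe sets of Mdm2, 1457929_at, stayed below the median of all values (5.83 on the log2 scale) on all 56 arrays. The other 13 passed the filter on low values, as did 22173 probe sets in all.

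The 56 tumors, with 1 array each, grew from p53-null mammary fragments that were never irradiated themselves. The fragments were put into inguinal fat pads of female BALB/c hosts, from which the host's own epithelium had been taken out at 3 weeks of age, 3 days after the host was irradiated or sham-irradiated. Wild-type hosts gave 23 irradiated and 9 sham tumors (called WT irradiated and WT sham), and hosts heterozygous for Tgfb1, the gene of transforming growth factor beta 1, gave 18 and 6 (Het irradiated and Het sham). The p53 loss belongs to all 4 groups, and the Tgfb1 genotype is given for the host. The labels give no radiation dose and no host age, and do not tell whether some tumors came from 1 host or 1 fragment donor. The p-values thus cover the spread among the arrays, which may be smaller than that between animals. Arrays of wild-type and of heterozygous hosts appeared to be normalized separately, and irradiated and sham hosts were therefore compared within a host genotype.

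All values are log2 expression. Bulk RNA does not separate fewer cells of a type from less RNA per cell. Tumors also differed in cell type marker scores. That of 10 epithelial junction genes (their mean log2 value) was above 9.5 in 25 of 32 tumors of wild-type hosts and 20 of 24 of heterozygous hosts, and at or below it in the other 7 and 4. Control signals also differed between groups. The 3' minus 5' difference of control probe sets, a measure of RNA integrity, averaged 0.22 in WT irradiated and 0.21 in WT sham tumors. It averaged 0.27 in Het irradiated and 0.40 in Het sham tumors. The 18S control averaged 12.74 ± 0.90 (SD, n = 23) in WT irradiated and 11.28 ± 1.78 (n = 9) in WT sham tumors, and 12.07 ± 0.71 (n = 18) in Het irradiated and 11.75 ± 1.01 (n = 6) in Het sham tumors.

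Promoters are shown for the 4 members whose RefSeq promoter window (GRCm38.p6, 250 bases before to 50 after a transcript start) holds a p53 half-site, the 10-letter element pairs of which make up the known p53 response element. They are shown because the members are known as p53 targets. Capitals mark the half-sites, each of which is a match of letters and not a measured binding site. The half-site is its own reverse complement, so a search of 1 strand covers both.
Cdkn1a, chr17:29090881-29090962, plus strand: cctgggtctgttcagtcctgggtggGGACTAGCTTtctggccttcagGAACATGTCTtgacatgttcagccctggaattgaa
Gadd45a, chr6:67037413-67037472, minus strand: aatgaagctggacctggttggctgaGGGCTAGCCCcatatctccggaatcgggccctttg
Mdm2, chr10:117710910-117710969, minus strand: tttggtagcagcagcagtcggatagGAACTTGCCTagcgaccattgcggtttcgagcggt
Ccng1, chr11:40755437-40755496, minus strand: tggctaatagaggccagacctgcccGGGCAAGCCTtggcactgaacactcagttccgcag
Cdkn1a had 2 half-sites 12 bases apart, the first 73 bases before the start, an arrangement (at most 13 bases apart) found in 24 of 32851 windows (0.0731%). The 10 letters directly after the second of them match a half-site in all but their first letter, and were not marked. The marked pair thus need not be the pair that makes up a response element. The single half-site lay 40 bases before the start in Gadd45a, 186 in Mdm2 and 185 in Ccng1. At least 1 half-site was present in 4 of 9 member windows (44.4%), against 8.36% of all windows. The windows of Sesn2 and Bbc3 and the second of Cdkn1a held none, which says only that these letters are absent from those stretches. No window was at hand for Perp or Zmat3.

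The target genes were measurable without p53 in the tumor cells: 12 of the 14 probe sets lay above the median of all values on 54 or more of the 56 arrays, 1425139_at of Sesn2 on 35, and the dim probe set of Mdm2 on none. Of all 34945 probe sets with 1 symbol, 19526 lay above it on at least 28 arrays. The median array level was 5.96 in wild-type and 5.64 in heterozygous hosts, on either side of the 5.83 used. Counts near it thus depend on host genotype. Group medians of 1425139_at were 6.03 (irradiated) and 5.99 (sham) in wild-type hosts, and 5.48 and 5.74 in heterozygous hosts. No member passed the test for a difference with host irradiation, limma with Benjamini-Hochberg adjustment over 22173 probe sets and a threshold of 0.05. In wild-type hosts 0 of 13 probe sets were called, at a background of 0.00451% of all probe sets, and 0 of 13 had an unadjusted p under 0.05, against 7.85% of all. In heterozygous hosts 0 of 13 were called (background 0%) and 1 of 13 had an unadjusted p under 0.05 (background 6.49%). Averaged over host genotypes the counts were 0 of 13 (background 0.0676%) and 1 of 13 (background 9.34%). The irradiation effect differed between host genotypes in 0 of 13 (background 0%), with 1 of 13 under an unadjusted p of 0.05 (background 4.62%). The difference between irradiated and sham tumors was positive in 12 of 13 probe sets in wild-type hosts, with a median of 0.10 against 0.00 over all probe sets, of which 49.9% were positive. Signs this close to 0 changed with the processing for some of them: Cdkn1a 1424638_at was -0.20 with array weights, and Mdm2 1427718_a_at was -0.06 with the 18S control as a covariate and -0.13 without arrays of 18S below 11. In heterozygous hosts 7 of 13 were positive, with a median of 0.03 against 0.01 over all. Probe sets of 1 gene share transcripts and are not independent.

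**Figure D1:**
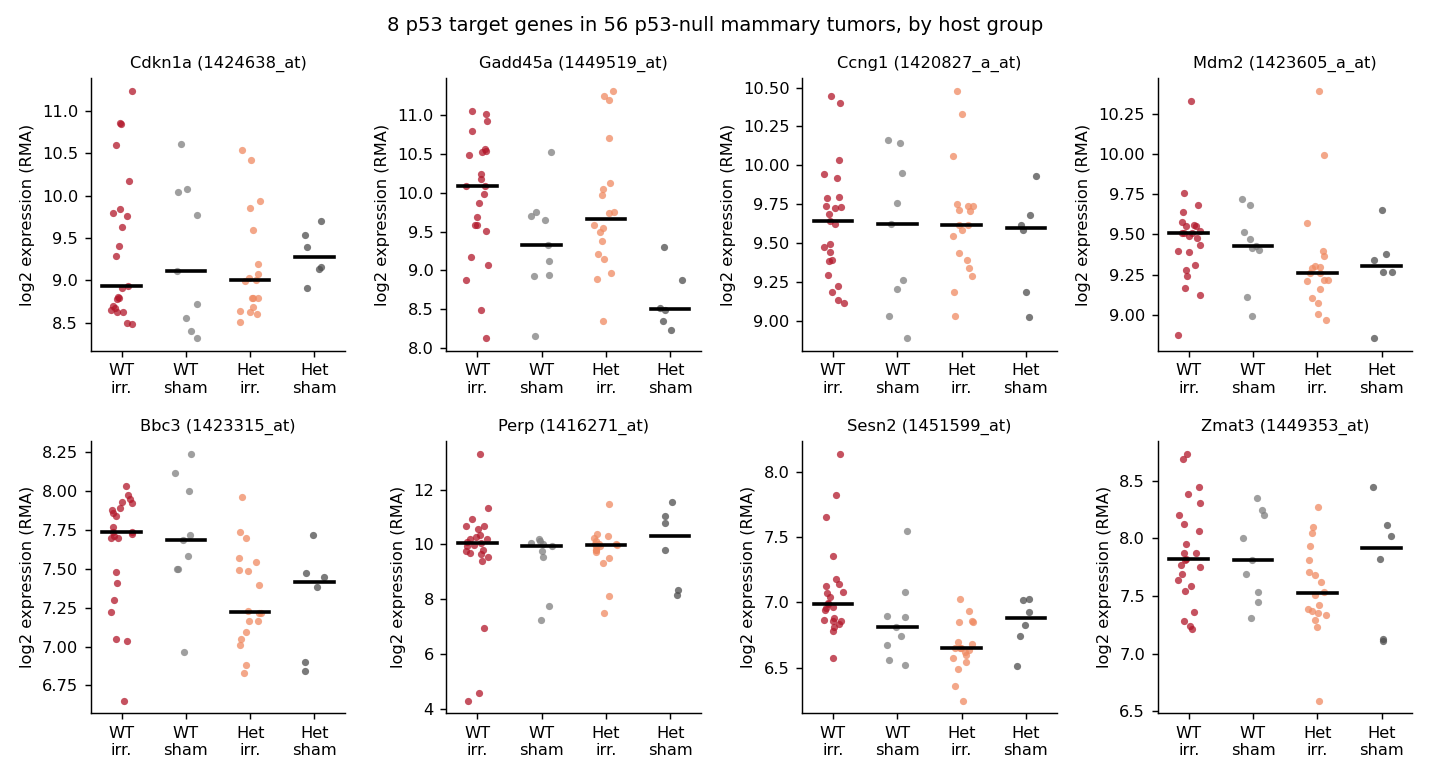
Log2 expression of the 8 p53 target genes (the probe set with the highest mean for each) in each tumor, by host group; each point is a tumor and the bar is the group median. In Gadd45a, 13 of 18 Het irradiated tumors lie above every Het sham tumor, and in all 8 genes the ranges of irradiated and sham tumors of a genotype overlap.

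Among the genes that stop the cell cycle, Cdkn1a (chromosome 17, 29090979 to 29100722) encodes p21, the inhibitor of cyclin-dependent kinases through which p53 holds cells in G1. Its probe set 1424638_at had a lowest, median and highest value of 8.48, 8.93 and 11.23 in WT irradiated tumors, against 8.32, 9.11 and 10.61 in WT sham tumors. The same values were 8.51, 9.00 and 10.53 in Het irradiated tumors and 8.91, 9.28 and 9.70 in Het sham tumors. Irradiated and sham tumors overlapped in both genotypes, and the 6 Het sham tumors lay inside the range of the 18 Het irradiated ones, 4 of which were above them all and 8 below them all. The differences were 0.10 (SE 0.29, adjusted p = 0.968) in wild-type and -0.14 (SE 0.35, adjusted p = 0.963) in heterozygous hosts in the limma fit. The second probe set of Cdkn1a, 1421679_a_at, followed the first across tumors (Pearson r 0.96 over 32 tumors of wild-type hosts and 0.97 over 24 of heterozygous hosts) and gave differences of 0.10 and -0.16. The spread within groups was wide, with an SD of 0.75, larger than that of 83.0% of all tested probe sets.

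Gadd45a (chromosome 6, 67035096 to 67037407), a stress-induced gene whose small protein acts in growth arrest and DNA repair, had the largest irradiation difference of the 8 genes. Probe set 1449519_at had a lowest, median and highest value of 8.35, 9.66 and 11.31 in Het irradiated tumors, against 8.23, 8.50 and 9.30 in Het sham tumors. In wild-type hosts the values were 8.13, 10.08 and 11.04 in irradiated tumors and 8.16, 9.33 and 10.52 in sham tumors. Of the 18 Het irradiated tumors 17 were above the Het sham median and 13 above its highest tumor, while in wild-type hosts 18 of 23 irradiated tumors were above the sham median and 7 above its highest tumor. The groups overlapped in both genotypes.

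The Gadd45a difference was 1.18 (95% interval 0.48 to 1.89, SE 0.35, 2.27-fold) in heterozygous hosts, with p = 0.00146 and an adjusted p of 0.531 in limma. In wild-type hosts it was 0.59 (95% interval -0.004 to 1.18, SE 0.29), with p = 0.0516 and an adjusted p of 0.636. Averaged over genotypes it was 0.89 (SE 0.23, 1.85-fold) with an adjusted p of 0.114, so it did not pass, and the genotypes did not differ detectably in it (difference of 0.60, SE 0.46, adjusted p = 1). Without the 9 arrays whose 18S control was below 11, the differences were 1.06 in heterozygous and 0.39 in wild-type hosts (p = 0.00981 and 0.307 in limma). Those arrays were unevenly spread: 4 of 9 WT sham, 2 of 23 WT irradiated, 1 of 6 Het sham and 2 of 18 Het irradiated tumors. With the epithelial junction score as a covariate they were 1.16 and 0.58, and with the 3' minus 5' difference of control probe sets, a measure of RNA integrity, 1.27 and 0.59. That difference averaged 0.27 in Het irradiated and 0.40 in Het sham tumors, and 0.22 in WT irradiated and 0.21 in WT sham tumors. Leaving out the tumor numbered 46 of WT sham gave 0.44 in wild-type hosts, and leaving out number 3 of WT sham gave 0.73. Basal marker scores (6 of 7 listed genes measured) had a median of 7.64 in Het irradiated tumors (6.52 to 10.34), against 9.11 in Het sham tumors (6.22 to 11.42). In heterozygous hosts 5 of those 6 genes had a negative difference, with a median of -1.18, 2 had an unadjusted p under 0.05 and 0 were called. The shares were 5.84% of all tested genes and 0% of all probe sets. The part of the basal genes in the Gadd45a values was not tested.

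Ccng1 (chromosome 11, 40748552 to 40755309), whose cyclin G1 protein recruits a phosphatase to MDM2, had 3 probe sets. For 1420827_a_at the lowest, median and highest values were 9.11, 9.64 and 10.44 in WT irradiated and 8.89, 9.62 and 10.16 in WT sham tumors. They were 9.03, 9.62 and 10.48 in Het irradiated and 9.02, 9.60 and 9.93 in Het sham tumors. Group medians thus nearly coincided, and the ranges overlapped almost wholly. Over the 3 probe sets the differences ran from 0.07 to 0.08 in wild-type hosts and from 0.14 to 0.22 in heterozygous hosts, all positive and none called. The third probe set, 1450016_at, followed the first less closely (r 0.57 and 0.71) than 1450017_at did (r 0.85 and 0.89).

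**Figure D2:**
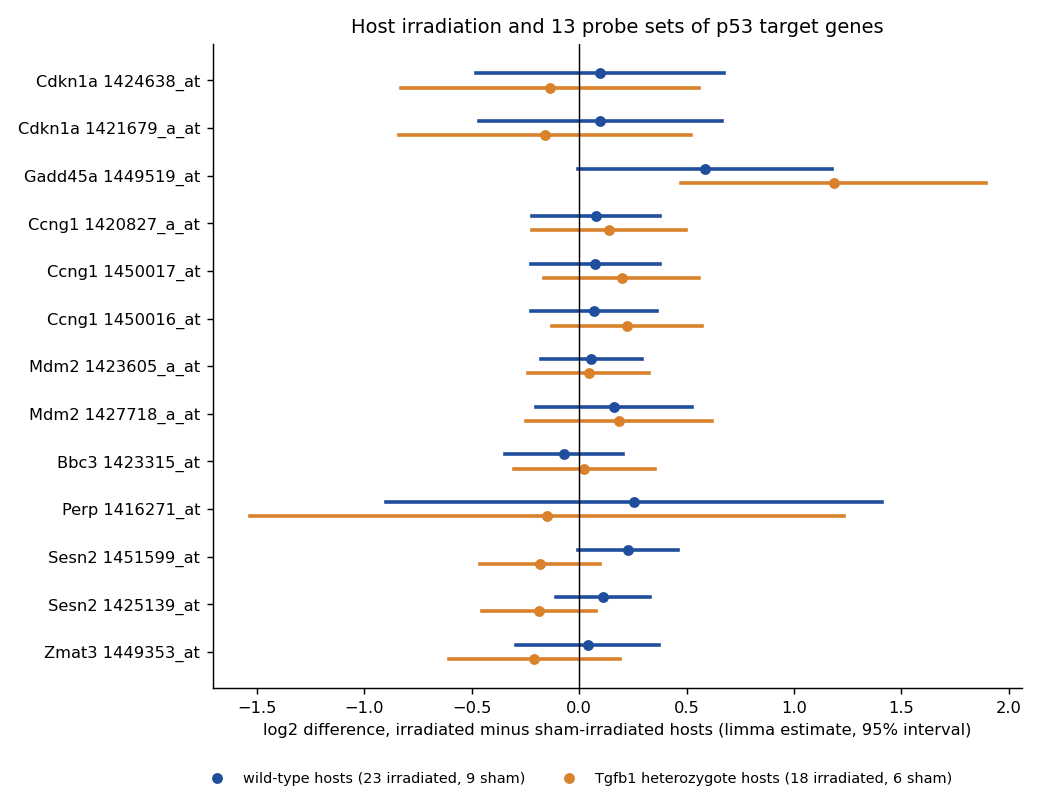
Difference in log2 expression between tumors of irradiated and of sham-irradiated hosts for the 13 tested probe sets, with limma's 95% interval, in wild-type (blue) and Tgfb1 heterozygous hosts (orange). Only the Gadd45a interval in heterozygous hosts (0.48 to 1.89) leaves out 0, before adjustment for the 22173 probe sets tested, and Perp has the widest intervals.

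Mdm2 (chromosome 10, 117688875 to 117710758) encodes the ubiquitin ligase that marks p53 for degradation, and as a p53 target it closes the loop that keeps p53 low. Probe set 1423605_a_at had a lowest, median and highest value of 8.87, 9.51 and 10.33 in WT irradiated and 8.99, 9.43 and 9.72 in WT sham tumors. In heterozygous hosts they were 8.97, 9.26 and 10.40 in irradiated and 8.85, 9.30 and 9.65 in sham tumors. Medians of irradiated and sham tumors lay within 0.1 of each other in both genotypes, and 1 tumor stood at the top of each genotype: number 57 of WT irradiated, 0.85 above the median of the 32, and number 56 of Het irradiated, 1.13 above the median of the 24. Number 57 had the highest 3' minus 5' difference of the 56 arrays (0.91) and an 18S control of 10.66. In number 56 these were 0.15 and 13.25. The differences were 0.06 (SE 0.12) in wild-type and 0.05 (SE 0.14) in heterozygous hosts for this probe set, and 0.16 (SE 0.18) and 0.19 (SE 0.22) for 1427718_a_at. The 95% intervals were -0.18 to 0.29 and -0.24 to 0.33 for the first, and wider for 1427718_a_at (-0.20 to 0.53 and -0.25 to 0.62). They bound the change of mean level only if the tumors are independent, which the labels do not tell. The SD of 1423605_a_at within groups was 0.29, wider than in only 23.1% of tested probe sets.

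Among the genes of cell death, Bbc3 (chromosome 7, 16308398 to 16318334) encodes PUMA, a BH3-only protein that frees the mitochondrial death pathway. Its probe set 1423315_at had a lowest, median and highest value of 6.65, 7.74 and 8.03 in WT irradiated and 6.96, 7.69 and 8.24 in WT sham tumors, and of 6.83, 7.22 and 7.96 in Het irradiated and 6.84, 7.41 and 7.72 in Het sham tumors. No irradiated tumor of a wild-type host exceeded the highest sham tumor, 2 of 18 did in heterozygous hosts, and the ranges overlapped. The differences were -0.07 (SE 0.14) and 0.03 (SE 0.16).

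Perp (chromosome 10, 18845071 to 18857073) encodes a membrane protein of desmosomes, the junctions that rivet epithelial cells together, and takes part in p53-dependent cell death. It was by far the most variable member. Probe set 1416271_at ran from 4.29 over a median of 10.04 to 13.32 in WT irradiated tumors, against 7.26, 9.94 and 10.22 in WT sham tumors. In heterozygous hosts it ran from 7.51 over 9.98 to 11.47 in irradiated tumors, against 8.16, 10.30 and 11.55 in sham tumors. Medians in wild-type hosts were close while the WT irradiated range reached beyond the WT sham range on both sides, with 8 of 23 tumors above it and 3 below. The SD within groups was larger than in 98.2% of tested probe sets, and the differences of 0.26 (SE 0.58) and -0.15 (SE 0.69) were well inside it.

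Sesn2 (chromosome 4, 132492804 to 132510456) encodes sestrin 2, which restrains mTORC1 signalling under stress. Its probe set 1451599_at had a lowest, median and highest value of 6.58, 6.99 and 8.14 in WT irradiated and 6.52, 6.81 and 7.55 in WT sham tumors. In heterozygous hosts the values were 6.24, 6.65 and 7.03 in irradiated and 6.51, 6.88 and 7.03 in sham tumors. Irradiated tumors were above the sham median in 21 of 23 cases in wild-type hosts and in 2 of 18 in heterozygous hosts, with overlapping ranges in both. The differences were 0.23 (SE 0.12, p = 0.0565, adjusted p = 0.645 in limma) and -0.18 (SE 0.14). Their contrast of -0.41 (SE 0.18) had an unadjusted p of 0.0291 and an adjusted p of 1 in limma, so it was not called, and 1425139_at gave -0.30 (SE 0.17). Expression of Sesn2 itself varied little, with an SD of 0.29.

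Zmat3 (chromosome 3, 32334792 to 32365665) encodes an RNA-binding zinc finger protein. Probe set 1449353_at had a lowest, median and highest value of 7.22, 7.82 and 8.73 in WT irradiated and 7.31, 7.81 and 8.35 in WT sham tumors. It had 6.59, 7.52 and 8.27 in Het irradiated and 7.11, 7.92 and 8.44 in Het sham tumors. The ranges overlapped, with no Het irradiated tumor above the highest Het sham tumor, and the differences were 0.04 (SE 0.17) and -0.21 (SE 0.20).

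The wider p53 pathway had no calls either. Of 31 other p53 targets 26 were measured, and 0 were called in either genotype, averaged or in the difference between genotypes. Over all 22173 probe sets the called shares were 0.00451%, 0%, 0.0676% and 0%, so 0 says little about this list. An unadjusted p under 0.05 in limma was found in 0 of 26 in wild-type hosts (7.04% of all tested genes) and 1 of 26 in heterozygous hosts (5.84%). Averaged it was found in 0 of 26 (7.78%), and in the contrast between genotypes in 1 of 26 (4.85%). Averaged over genotypes 17 were higher and 9 lower in irradiated tumors, with a median of 0.02 against 0.00 over all genes. Those with the lowest p among the positive ones were Ei24 (0.13, SE 0.09), the death receptor gene Fas (0.25, SE 0.17), the BH3-only gene Pmaip1 (0.36, SE 0.28) and Trp53i11 (0.17, SE 0.14). Among the negative ones they were the epoxide hydrolase gene Ephx1 (-0.41, SE 0.25), Sfn, which encodes the 14-3-3 sigma protein (-0.31, SE 0.28), the apoptosome gene Apaf1 (-0.15, SE 0.15) and the thiamine transporter gene Slc19a2 (-0.10, SE 0.11). None of these 8 averaged differences had an unadjusted p under 0.1 in limma. In heterozygous hosts alone Ephx1 had a difference of -0.77 (SE 0.38, p = 0.0484, adjusted p = 0.766 in limma). Phlda3, a p53 target that restrains AKT signalling and is named here after its values were seen, had a difference of 0.50 (SE 0.30) in wild-type and -0.71 (SE 0.36) in heterozygous hosts. The contrast between genotypes was -1.21 (SE 0.47, p = 0.0121, adjusted p = 1 in limma), and it was not called.

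Of 15 genes of p53 relatives and regulators 14 were measured and 0 were called in any of these comparisons. At an unadjusted p under 0.05 in limma, 2 were higher and 1 lower in wild-type hosts (7.04% of all tested genes), and 0 in heterozygous hosts (5.84%). Averaged, 2 were higher and 0 lower (7.78%), and in the contrast between genotypes 1 was higher and 1 lower (4.85%). Cop1, a ubiquitin ligase for p53, was 0.23 higher in irradiated tumors (SE 0.07, p = 0.00355, adjusted p = 0.253 in limma, averaged over genotypes), with 0.26 in wild-type and 0.20 in heterozygous hosts. Rchy1, which encodes another p53 ubiquitin ligase (PIRH2), was 0.20 higher (SE 0.09, p = 0.0245, adjusted p = 0.446 in limma). Next came the acetyltransferase gene Kat5 (0.18, SE 0.12) and the kinase gene Hipk2 (0.26, SE 0.22). Below 0 were Trp53bp1 (-0.15, SE 0.09), the Mdm2 paralog Mdm4 (-0.14, SE 0.09), the deubiquitinase gene Usp7 (-0.09, SE 0.08) and the checkpoint kinase gene Chek2 (-0.14, SE 0.14). These 8 values are descriptions, since none passed the test. Opposite signs in the genotypes cancel in the average, so Trp63 and Cdkn2a are named here too, after their values were seen. The p53 relative Trp63 had 0.98 (SE 0.60) in wild-type and -1.38 (SE 0.72) in heterozygous hosts. Its contrast was -2.36 (SE 0.93, p = 0.0143 in limma). Cdkn2a had -0.78 (SE 0.37) and 0.50 (SE 0.45), with a contrast of 1.28 (SE 0.58, p = 0.0333 in limma). Neither contrast was called. The 6 measured basal genes had a median difference of 0.23 in wild-type and -1.18 in heterozygous hosts, with a median contrast of -1.58. The part of basal content in the Trp63 values was not tested. In the cell cycle list, 15 of 15 measured genes had a negative averaged difference, with a median of -0.19, and 0 were called (background 0.0676%). Over all probe sets 51.4% of the averaged differences were positive. Other lists were also one-sided: 10 of 10 fibroblast genes were negative (median -0.36), and 9 of 10 epithelial junction genes were positive (median 0.30). Genes of the cell cycle list vary together between tumors and are not 15 separate observations.

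Whether the members moved together from tumor to tumor was asked pair by pair. Over the 8 genes, each represented by its brightest probe set, 56 pairwise correlations (28 in each host genotype) were computed, with two-sided permutation tests of 100000 resamples and Benjamini-Hochberg adjustment over the 56. None passed 0.05, and r ran from -0.53 to 0.56. The closest was Sesn2 with Zmat3 in wild-type hosts (r = 0.54, rho = 0.30, adjusted permutation p = 0.0627, n = 32), which dropped to r = 0.36 without the 2 tumors farthest from the Sesn2 median. Cdkn1a and Mdm2, both with half-sites in their promoters, had r = 0.29 in each genotype (adjusted permutation p = 0.284 for 32 tumors and 0.336 for 24). Cdkn1a and Gadd45a had r = -0.10 and 0.14. Of the other pairs with half-sites, Ccng1 with Mdm2 had r = 0.37 in wild-type and 0.56 in heterozygous hosts (adjusted permutation p = 0.214 and 0.107). The value of 0.56 was the highest of the 56. Ccng1 with Cdkn1a had r = 0.40 and 0.27, Gadd45a with Mdm2 0.35 and -0.07, and Ccng1 with Gadd45a 0.16 and -0.08.

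Since the tumors fell into 2 sets by epithelial junction score, correlations were also taken within the larger set, a choice made after the scores were seen. There 4 of 56 passed. Cdkn1a and Perp were correlated in the 25 tumors of wild-type hosts with a score above 9.5 (r = 0.72, rho = 0.52, adjusted permutation p = 0.00504, and r = 0.68 without the 2 tumors farthest from the Cdkn1a median). Spearman's rho for that pair had an adjusted permutation p of 0.115, and in the 20 such tumors of heterozygous hosts r was 0.02. Over all 32 tumors of wild-type hosts the sign was opposite (r = -0.43, rho = 0.02, adjusted permutation p = 0.128 for r), so the relation rests on which tumors are taken. In all 24 of heterozygous hosts r was 0.21. The other 3 were Ccng1 with Zmat3 in wild-type hosts (r = 0.60, n = 25, adjusted permutation p = 0.0426) and, in heterozygous hosts (n = 20), Ccng1 with Mdm2 (r = 0.65, adjusted permutation p = 0.0426) and Mdm2 with Perp (r = 0.67, adjusted permutation p = 0.0434). By rho, 0 of the 56 passed in any of these sets of tumors.

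**Figure D3:**
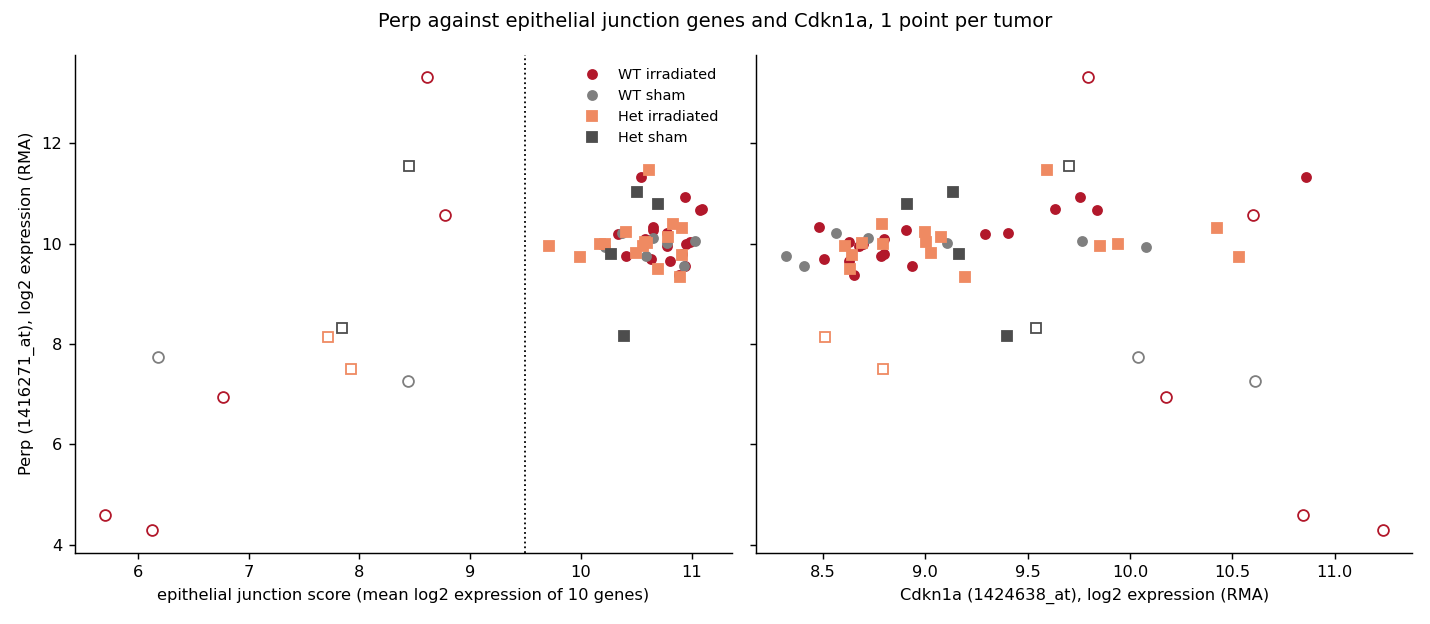
Perp against the epithelial junction score (left, dotted line at 9.5) and against Cdkn1a (right), log2 expression, 1 point per tumor; filled symbols are tumors with a score above 9.5 and open symbols those at or below it, circles for wild-type and squares for heterozygous hosts. The open symbols spread in Perp from 4.29 to 13.32, and the filled ones from 8.16 to 11.47.

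Of the 32 highest and lowest values of the 8 genes in the 2 host genotypes, 13 lay in tumors with an epithelial junction score at or below 9.5, which make up 11 of the 56 tumors. Number 11 of WT irradiated had the lowest Perp (4.29) and the highest Cdkn1a (11.23) of all 32 tumors of wild-type hosts, at an epithelial junction score of 6.13, against a median score of 10.65 over those tumors. Number 16 of WT irradiated had the highest Perp (13.32), Sesn2 (8.14) and Zmat3 (8.73) and the lowest Gadd45a (8.13), with an epithelial junction score of 8.61 and a basal score of 11.02. In heterozygous hosts, number 7 of the irradiated group had the lowest Perp (7.51) and Bbc3 (6.83) and the highest Ccng1 (10.48), with an epithelial score of 7.93 and a fibroblast score of 12.67, the highest of the 24.

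With 5 marker lists (epithelial junction, cell cycle, fibroblast, macrophage and lymphocyte), 18 of 80 correlations of members passed over all tumors of a genotype. They included Cdkn1a with the macrophage score (r = 0.53, rho = 0.58, adjusted permutation p = 0.0135, n = 32 wild-type hosts), which in heterozygous hosts had the opposite sign (r = -0.38, rho = -0.20, adjusted permutation p = 0.203, n = 24). They also included Ccng1 with the fibroblast score in both genotypes (r = 0.49, n = 32, adjusted permutation p = 0.0231, and r = 0.51, n = 24, adjusted permutation p = 0.0492). By rho neither passed (0.53 and 0.45, adjusted permutation p = 0.0541 and 0.189). Without the 2 tumors farthest from the median fibroblast score, r was 0.63 and 0.37. In heterozygous hosts the highest fibroblast scores (12.67, 12.48 and 12.35) lay in tumors with epithelial scores of 7.93, 8.45 and 7.84. Of the 18, 7 involve the epithelial score, whose tumors fall into separate sets, so no pooled r is given for them. Within the tumors of a score above 9.5, 0 of 80 passed, and Cdkn1a with the macrophage score came closest (r = 0.63, rho = 0.60, n = 25 wild-type hosts, adjusted permutation p = 0.0528), against r = -0.31 in heterozygous hosts (n = 20, adjusted permutation p = 0.478). The correlation of Cdkn1a with the cell cycle score was r = 0.02 in wild-type (adjusted permutation p = 0.929, n = 32) and -0.18 in heterozygous hosts (adjusted permutation p = 0.575, n = 24).

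The genes whose levels were most like each member were listed by the mean of r in the 32 tumors of wild-type and the 24 of heterozygous hosts, over 12507 genes, as a description. For Perp they were the desmosome genes Pkp3 (0.80) and Dsp (0.77) with Plek2 (0.79) between them. For Cdkn1a they were Acsbg1, A830010M20Rik and Gpc1 (0.65 to 0.67), for Gadd45a Necap1, Smim3 and Fpgt (0.56 to 0.63), and for Ccng1 Tmem19, Slc35d2 and Riok3 (0.66 to 0.76). For Bbc3 they were H2aw, Tm2d3 and Irf3 (0.66 to 0.68), for Sesn2 Mreg, Enoph1 and Slc35d1 (0.64 to 0.67), and for Zmat3 Rab12, Eif5a2 and Ankrd12. None of the 3 genes most like a member was another member.

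The 3 genes most similar to Mdm2 all lie near it on chromosome 10. Rab21 (r = 0.71, chromosome 10, 115289862 to 115317419), Yeats4 (r = 0.70, 117215141 to 117224507) and Cnot2 (r = 0.69, 116485160 to 116581900) start 2.4, 0.47 and 1.2 Mb from Mdm2. After this was seen, the position of similar genes was counted for all members. Of the 50 genes most like Mdm2, 25 lie on chromosome 10, which carries 4.78% of the tested genes, and 9 lie within 3 Mb of it. The 28 tested genes within 3 Mb had a median r of 0.35 with Mdm2 and 26 were positive, against a median of 0.17 on the rest of chromosome 10 and -0.02 over all genes. Without the tumor of highest Mdm2 in each genotype the median within 3 Mb was 0.29, with 27 of 28 positive. In the highest of them, number 56 of Het irradiated, Yeats4, Cnot2 and Rab21 were also at their highest of the 24 tumors, by 1.01, 1.02 and 1.21 above their medians. In number 57 of WT irradiated, Yeats4 ranked first, Rab21 ranked 3 and Cnot2 ranked 10 of 32. That array had the highest 3' minus 5' difference of the 56 (0.91), and the part of RNA integrity in these ranks was not tested.

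Within 3 Mb of Perp the median r was 0.26 over 20 genes, 18 of them positive, against 0.045 on the rest of chromosome 10. The other 6 members had 0.07 to 0.21 within 3 Mb, and 0.07 to 0.22 on the rest of their chromosomes. A higher r close to the gene was thus not particular to Mdm2. Bbc3 also had 25 of its 50 most similar genes on its own chromosome, 7, which carries 7.6% of tested genes, but 0 of them within 3 Mb, where the median r was 0.19 against 0.22 on the rest of the chromosome. The count on the own chromosome was 15 of 50 for Zmat3, 10 for Gadd45a and for Sesn2, 6 for Ccng1, 4 for Perp and 3 for Cdkn1a. The genes share arrays, and no test was made of these counts. DNA copy number was not analysed here.

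**Figure D4:**
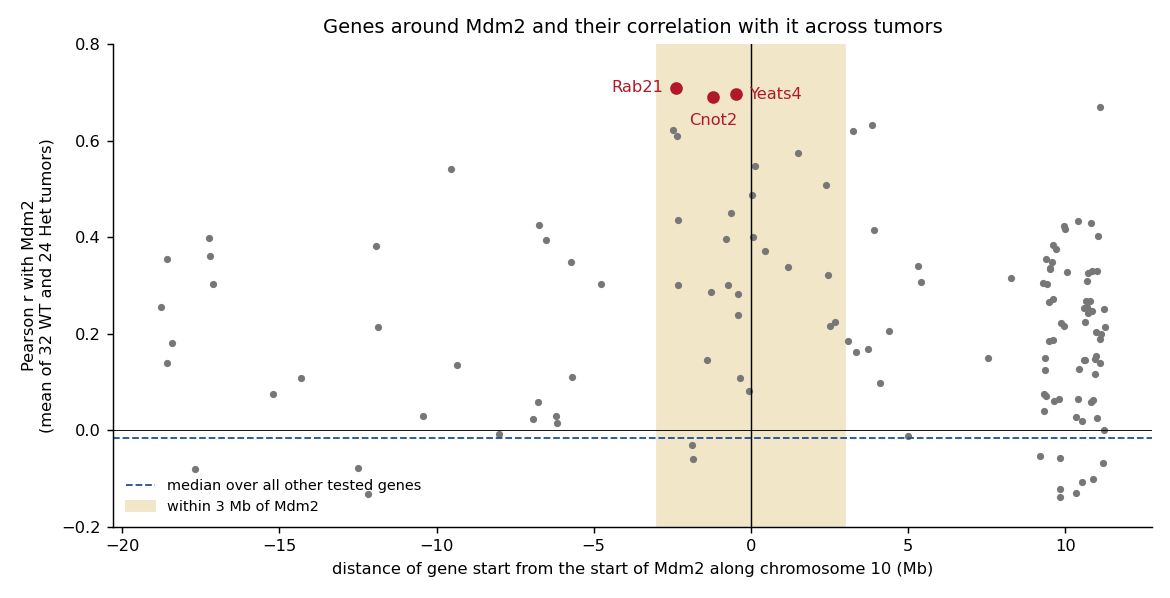
Pearson r with Mdm2 across tumors (mean over the 32 tumors of wild-type and the 24 of heterozygous hosts) of tested genes on part of chromosome 10, by the distance of their start from that of Mdm2 in Mb. The genes shown lie from -18.8 to 11.3 Mb. Of the 598 other tested genes on the chromosome, those farther away are not shown. Genes in the shaded 3 Mb on each side have a median r of 0.35, and the dashed line marks the median of -0.02 over all other tested genes.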

How the data were processed

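For each of 56 tumors, 100 ng of total RNA was labelled and hybridised to an Affymetrix array, per the labels' protocols. The authors deposited log2 values that had been summarised with RMA, per the submitters' processing notes, which name no version. Depth has no meaning for arrays, and the number of tumors limits the precision. Groups came from the sample titles. Members and gene lists were chosen with earlier results of these data known.

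A probe set was tested if it had 1 gene symbol and lay above the overall median on 6 arrays or more. limma 3.58.1 in R 4.3.3 (lmFit and eBayes) took all 56 arrays in 1 model of 4 group means, with Benjamini-Hochberg adjustment over 22173 probe sets, and was tested on simulated data. Every member probe set is reported. Of the other pathway lists, up to 4 genes per direction with the lowest averaged p are named, and for each member the 3 most similar genes. Phlda3, Trp63 and Cdkn2a were named besides, after their values were seen. In correlations a gene was represented by its brightest probe set. Promoter sequences and gene positions came from RefSeq tables of GRCm38.p6. Alternatives were no filter, a stricter filter, 1 probe set per gene, joint quantile normalization, a trended robust fit, array weights, 3 covariates, arrays left out by 18S or one at a time, and the 2 groups alone. Epithelial junction scores above 9.5 were added after the data were seen. Analyses used Python 3.11.15, numpy 2.4.6, pandas 2.3.3 and scipy 1.17.1, and plots matplotlib 3.10.9.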

Additional observations from a re-analysis of the deposited data

Results flagged for a closer look

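Of 26 sets of values (13 probe sets in each group of 6 or 9 sham tumors), 1 held a tumor set far apart from the rest, by a criterion that chance meets in about 1 group in 20. In probe set 1421679_a_at of Cdkn1a, the tumor numbered 38 of Het sham had a value of 8.09, while the nearest of the other 5 was at 8.64, so that the gap made up 0.736 of the range of the group. In the brighter probe set of the gene, 1424638_at, the same tumor had 8.91 and the nearest other 9.14, and it was not flagged. Without that tumor the Cdkn1a count of calls was still 0.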

How the results depend on the processing

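Under up to 12 alternatives and with each of the 56 arrays left out in turn, 0 of the member probe sets were called in any comparison run. For Gadd45a averaged over genotypes, the alternatives gave 0.72 (without arrays of 18S below 11, adjusted p = 0.396 in limma) to 0.93, with a lowest adjusted p of 0.0518 with array weights, and single arrays left out gave 0.81 to 0.96 (adjusted p 0.0613 to 0.233). Over all probe sets the averaged comparison called 15, but 155 with array weights, 73 in tumors of epithelial score above 9.5, 6 with joint quantile normalization, 8 with the 3' minus 5' covariate, 0 with the 18S covariate, 1 with 1 probe set per gene, and 2 to 37 with 1 array left out; the cause was not tested. Of the member differences recomputed under the alternatives, 5 changed sign with a move of over 1 SE, none of them called, while 573 kept their sign or changed it with a smaller move. In wild-type hosts these were Cdkn1a 1424638_at (-0.20 with array weights) and Mdm2 1427718_a_at (-0.06 with the 18S covariate, -0.13 without arrays of 18S below 11). Above an epithelial score of 9.5 they were Bbc3 in heterozygous hosts (-0.15) and Mdm2 1423605_a_at in the contrast between genotypes (0.18). None of the 5 is counted as reversed, since the reported value lay within 1 SE of 0. Correlations between members passed in 0 of 56 relations, in 1 after centring on group means (Sesn2 with Zmat3) and in 4 among tumors of epithelial score above 9.5. Correlations with marker lists passed in 18 of 80, in 4 among irradiated hosts only, in 0 above a score of 9.5, where tumors are fewer, and in 2 by Spearman's rho. No paired analysis was possible because replicate numbers do not recur across groups.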
